A study of Mus musculus with 24 samples.

Results

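The 10 genes described here carry out antigen presentation by the major histocompatibility complex (MHC), and were taken by name from a table of read counts for 43430 mouse genes. The 6 class I members are the heavy chains H2-K1 and H2-D1, the light chain B2m, the peptide transporter subunits Tap1 and Tap2, and the loading chaperone Tapbp (tapasin). The 4 class II members are the chains H2-Aa, H2-Ab1 and H2-Eb1 and the invariant chain Cd74. All 10 were present in the table and all 10 were among the 15300 genes with enough counts to be tested.

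The counts came from 24 RNA sequencing libraries of whole mouse cerebellum, 1 per animal, at about 7 weeks of age. Each of 4 genotype groups, named cKO, cKO+NDI1, Cre control and NDI1 control, held 3 males and 3 females. As known of the study, cKO mice lack the mitochondrial complex I subunit gene Ndufs4 in the brain through a Cre recombinase driven by the nestin promoter, and NDI1 is a yeast NADH dehydrogenase that oxidises NADH without pumping protons. The labels give the group names alone: they do not state the alleles, the strain, or whether the NDI1 control animals carry Cre. Nestin-driven Cre acts in neural progenitors and their descendants, so that microglia and blood-derived immune cells, which supply much of the class II message in brain, are not its main target. The title of the series places the comparison in the question of what regenerating NAD+ restores in a complex I deficient brain.

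Class I molecules sit on almost all nucleated cells and display peptides made in the cytosol, which TAP carries into the endoplasmic reticulum and tapasin helps to load. Class II molecules are made mainly by B cells, dendritic cells, macrophages and activated microglia; Cd74 guides them to the endosome, where they take up peptides from engulfed protein. Neurons express little of either class at rest, interferons raise class I, and interferon gamma acting through the coactivator Ciita raises class II.

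Library totals ran from 7584374 to 19785264 counts, and the cKO libraries were shallower (median 11547903) than those of the Cre control (15874079), NDI1 control (15254777.5) and cKO+NDI1 (15281035) groups. Mitochondrial genes held 2.07 to 3.35% of counts in cKO libraries and 1.48 to 2.23% in Cre control libraries. Ndufs4 itself was at 67.1 to 133 CPM (counts scaled to a common library size) in cKO and 104 to 164 CPM in Cre control animals, a log2 difference of -0.47 ± 0.16 (SE; adjusted p = 0.0939, edgeR). A whole-gene count does not check a deletion of part of the gene, so these values do not test the labels. Markers of cerebellar neurons (Pcp2, Calb1, Gabra6, Car8 and Pvalb) summed to between 7151 and 10895 CPM in every library, so the labelled tissue was present throughout.

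The promoters of class II and class I genes are shown because the 2 classes differed in direction in cKO cerebellum. They run from 250 bases before to 50 bases after a transcription start (RefSeq, GRCm38.p6), 5′ to 3′ on the gene's own strand. Of the 10 genes, 7 had a window in that table. In the class II windows, H2-Aa (chr17:34287774-34288073, minus strand) and H2-Eb1 (chr17:34305617-34305916, plus strand), capitals mark the letters CTNGCAACT, the core of the X box bound by the RFX complex, and CTGATTGG, the Y box bound by NF-Y. In the class I windows, H2-K1 (chr17:34000284-34000583, minus strand) and H2-D1 (chr17:35262844-35263143, plus strand), capitals mark GGGATTCCC, the core of the kB site, TTTCACTTC, the core of the interferon response element, and the Y box letters on the opposite strand. H2-K1 has a pair of listed starts, and the window around the start that matches its annotated end on the minus strand is shown.
H2-Aa: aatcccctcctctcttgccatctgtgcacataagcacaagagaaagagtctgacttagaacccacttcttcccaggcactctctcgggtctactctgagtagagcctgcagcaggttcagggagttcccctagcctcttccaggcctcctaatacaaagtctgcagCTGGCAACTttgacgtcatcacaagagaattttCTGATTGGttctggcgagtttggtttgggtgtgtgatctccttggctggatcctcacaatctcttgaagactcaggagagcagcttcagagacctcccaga
H2-Eb1: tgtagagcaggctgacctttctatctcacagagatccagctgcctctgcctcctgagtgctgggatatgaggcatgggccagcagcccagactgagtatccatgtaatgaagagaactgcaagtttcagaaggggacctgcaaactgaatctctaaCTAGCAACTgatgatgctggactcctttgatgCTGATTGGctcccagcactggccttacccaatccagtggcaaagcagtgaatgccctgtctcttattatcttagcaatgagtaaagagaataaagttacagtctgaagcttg
H2-K1: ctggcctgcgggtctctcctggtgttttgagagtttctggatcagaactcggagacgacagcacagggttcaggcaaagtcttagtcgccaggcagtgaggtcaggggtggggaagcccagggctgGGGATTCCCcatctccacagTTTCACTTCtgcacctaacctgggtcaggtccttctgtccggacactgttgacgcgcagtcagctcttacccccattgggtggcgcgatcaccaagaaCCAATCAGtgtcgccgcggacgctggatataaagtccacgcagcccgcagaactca
H2-D1: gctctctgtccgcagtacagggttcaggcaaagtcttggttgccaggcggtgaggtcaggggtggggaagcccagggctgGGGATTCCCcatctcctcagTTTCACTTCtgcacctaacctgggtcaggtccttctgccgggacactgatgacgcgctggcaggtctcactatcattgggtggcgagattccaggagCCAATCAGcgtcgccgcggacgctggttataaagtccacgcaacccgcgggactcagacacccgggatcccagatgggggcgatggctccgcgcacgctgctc

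The X box letters stood at -84 to -76 from the start in H2-Aa and at -94 to -86 in H2-Eb1, each upstream of a Y box at -51 to -44 and -62 to -55. On either strand, the X box letters occurred in 0.898% of 32841 promoter windows of the same length and the Y box letters in 4.1%. The kB letters stood at -124 to -116 in H2-K1 and -170 to -162 in H2-D1 and occurred in 0.353% of windows. The interferon response letters stood at -104 to -96 and -150 to -142 and occurred in 0.505%. The Y box letters on the opposite strand stood at -6 to 2 in the H2-K1 window shown, across the start, and at -53 to -46 in H2-D1. Tap1 held the Y box letters on the opposite strand at -222 to -215 and none of the other letters searched. The windows of B2m and Tapbp, also class I members, held none of the letters searched. The letters searched were chosen with these windows in view, and a match is a run of letters, not a measured binding site.

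On the mm10 assembly, 8 of the 10 genes lie in the MHC region of chromosome 17, from Tapbp (33915899-33929288) through H2-K1 (33996017-34000333), Tap1 (34187553-34197225), Tap2 (34203527-34216321), H2-Ab1 (34263209-34269418), H2-Aa (34282744-34287827) and H2-Eb1 (34305877-34316199) to H2-D1 (35262730-35267499). B2m lies on chromosome 2 (122147686-122153083) and Cd74 on chromosome 18 (60803848-60812646). Counts cover the exons of each gene as a whole, and the strand setting of the counting is not given in the sources used here. Tapbp overlaps Zbtb22 on the same strand and Gm19412 on the opposite strand, and Cd74 overlaps Mir5107 on the same strand. Tap1 overlaps Psmb9, Tap2 overlaps Gm15821 and Gm20496, H2-Eb1 overlaps Gm20513, and B2m overlaps Patl2, all on the opposite strand. Of the 75-base stretches of transcript sequence, 18.6% in Tapbp, 8.27% in Tap2, 5.56% in H2-D1, 3.1% in H2-K1 and 2.4% in Tap1 also occurred in another gene, so reads there could be split or lost; the share was 0% for B2m, Cd74, H2-Aa, H2-Ab1 and H2-Eb1.

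Levels between genes were compared per base of exon, as RPKM (CPM per kilobase of exon). In Cre control cerebellum B2m stood highest at 118 ± 13.5 RPKM (SD, n = 6), followed by H2-D1 at 81.4 ± 11.8. H2-K1 (12.6 ± 1.65) and Tapbp (11.3 ± 0.632) came next and did not differ beyond their spread. Cd74 stood at 3.62 ± 1.11 RPKM and Tap2 at 2.72 ± 0.283, again within their spread. H2-Eb1 (1.51 ± 0.420) and H2-Ab1 (1.34 ± 0.339) overlapped, as did Tap1 (0.764 ± 0.181) and H2-Aa (0.749 ± 0.207) at the bottom. Class II message was therefore scarce in this tissue: in single libraries of any group the 3 class II chains had between 12 and 90 reads, and Cd74 between 32 and 139.

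In cKO cerebellum, members of the 2 classes changed in opposite directions relative to the Cre control. H2-K1 and Tapbp rose, by 1.38-fold and 1.17-fold, and Cd74 and H2-Aa fell, to 0.605 and 0.588 of the control level. These 4 of 10 members passed an adjusted p of 0.05, beside 4.87% of all genes tested in the same comparison (3.06% higher and 1.81% lower). All 6 class I members had positive estimates (median log2 difference 0.23) and all 4 class II members negative ones (median -0.69), against a median of -0.01 over all genes. No member had groups free of overlap, beside 1.61% of all genes in the higher and 1.07% in the lower direction. Bulk counts cannot tell fewer cells of a type from less RNA per cell. All 4 calls depended on which libraries were in the fit: the number of members called fell to 0 without Cre control female 1, and was 1 without Cre control male 2, cKO male 1, cKO male 2, cKO female 1 or cKO female 2. It was 2 without Cre control male 1, male 3 or female 2 or without cKO female 3, and all 10 members kept the sign of their estimate in each of the 24 fits that left out 1 library.

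H2-K1, the class I heavy chain of the K locus, ranged in Cre control animals from 32.1 to 44.5 CPM with a median of 36.1, and in cKO animals from 41.1 to 65.4 CPM with a median of 49.96. Of the cKO animals, 5 of 6 were above every Cre control animal, and cKO female 3, at 41.1 CPM, lay within the control range. The log2 difference was 0.47 ± 0.12 (SE; 95% interval 0.22 to 0.71; adjusted p = 0.0229). H2-K1 lost its call without Cre control male 3 or female 1, or cKO female 1 or female 2 (largest adjusted p = 0.0647), with log2 differences between 0.35 and 0.50 over all leave-one-out fits.

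Tapbp bridges TAP and the empty class I heavy chain. It ranged from 38.2 to 43.9 CPM (median 41.0) in Cre control and from 40.1 to 52.2 CPM (median 49.3) in cKO animals, with 5 of 6 cKO animals above every control. The log2 difference of 0.23 ± 0.07 (95% interval 0.09 to 0.37; adjusted p = 0.0424) was small and near the threshold: 18 of the 24 leave-one-out fits did not call it. Among these were fits without a library of either group compared or of either NDI1 group, and the adjusted p ran from 0.0135 to 0.113.

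B2m, the light chain shared by all class I molecules, did not pass the test in cKO cerebellum (log2 difference 0.27 ± 0.09, adjusted p = 0.0743). It passed with DESeq2 (adjusted p = 0.0433), and in edgeR without cKO male 3 (adjusted p = 0.0163) or with the replicate number as a block (adjusted p = 0.038). Its levels were 83.2 to 112 CPM (median 105) in Cre control and 100.3 to 146 CPM (median 121) in cKO animals, 4 of 6 of them above every control. The estimates for H2-D1 (0.15 ± 0.09, adjusted p = 0.397), Tap1 (0.23 ± 0.15, adjusted p = 0.463) and Tap2 (0.09 ± 0.10, adjusted p = 0.726) were positive and did not pass. Their 95% intervals reached 0.35, 0.54 and 0.30 on the log2 scale, so a rise as large as that of Tapbp was within the range for each of these genes.

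**Figure D1:**
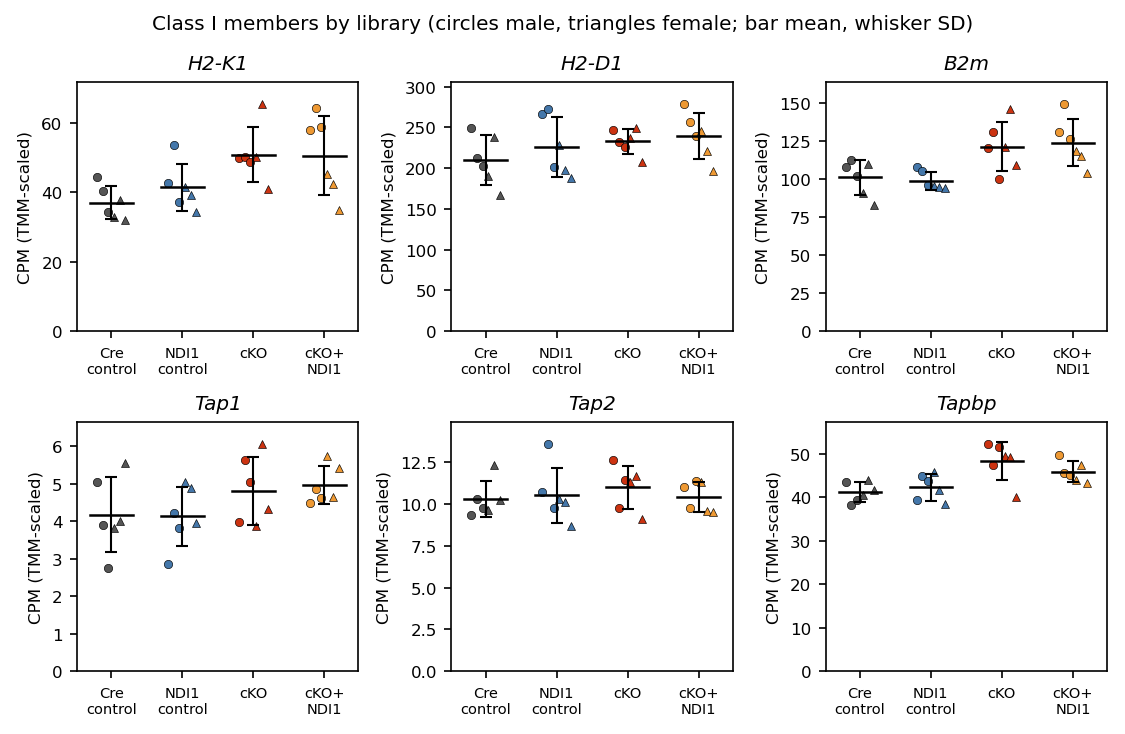
Level of each class I member (CPM, library sizes scaled by TMM; y axis from 0) in each of 24 libraries by genotype group, with circles for males, triangles for females, a bar at the mean and a whisker of 1 SD. H2-K1, B2m and Tapbp sit higher in most cKO animals than in the Cre control animals, and Tap2 overlaps throughout.

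Cd74, the invariant chain that escorts class II molecules, ranged from 3.46 to 9.04 CPM (median 5.75) in Cre control animals and from 2.75 to 4.65 CPM (median 3.70) in cKO animals. The groups overlapped, since Cre control female 3 was low, and 2 of 6 cKO animals lay below every control. Female 3 was also the lowest for Cd74 in the NDI1 control (3.77 CPM) and cKO groups (2.75 CPM), but not in cKO+NDI1. The log2 difference was -0.72 ± 0.20 (95% interval -1.13 to -0.32; adjusted p = 0.0336).

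H2-Aa, the alpha chain of the A isotype, ranged from 1.49 to 3.75 CPM (median 2.90) in Cre control animals and from 1.1 to 2.44 CPM (median 1.59) in cKO animals, where it rested on 12 to 27 reads per library. Of the cKO animals, 3 of 6 were below every control animal. The log2 difference was -0.76 ± 0.21 (95% interval -1.20 to -0.33; adjusted p = 0.0339). Leaving out 1 library ended the call of Cd74 in 7 of 24 fits (Cre control male 2, female 1 or female 2; cKO male 1, male 2, female 1 or female 3) and that of H2-Aa in 8 of 24 (Cre control male 1, male 2, female 1 or female 2; cKO male 1, male 2, female 2 or female 3), with adjusted p-values up to 0.0913 and 0.0893. Without the low control animal, Cre control female 3, both calls held.

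H2-Ab1, the beta chain that pairs with H2-Aa, had a median of 3.27 CPM (2.27 to 4.69) in Cre control and of 2.45 CPM (0.947 to 3.21) in cKO animals. The lowest value was cKO male 3, with 12 reads, and the log2 difference of -0.56 ± 0.24 did not pass (adjusted p = 0.195). H2-Eb1, the beta chain of the E isotype, had a median of 3.02 CPM (1.67 to 3.84) in Cre control and of 1.94 CPM (1.18 to 2.28) in cKO animals. Its log2 difference of -0.66 ± 0.22 did not pass either (adjusted p = 0.0921), and passed in edgeR without Cre control female 3 (adjusted p = 0.0472) and with DESeq2. The partner of H2-Eb1, annotated as the pseudogene H2-Ea-ps, had 0 counts in all 24 libraries.

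**Figure D2:**
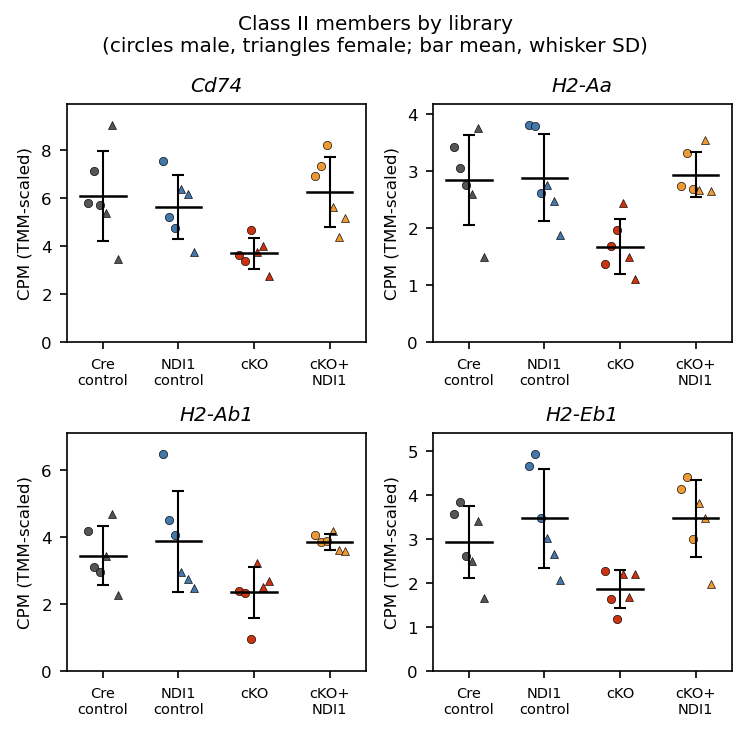
Level of each class II member (CPM, library sizes scaled by TMM; y axis from 0) in each library by genotype group, with circles for males, triangles for females, a bar at the mean and a whisker of 1 SD. The cKO animals sit low for all 4 genes, overlapping the Cre control animals, and the cKO+NDI1 animals of H2-Aa and H2-Ab1 all sit above every cKO animal.

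In cKO+NDI1 animals the class II members had higher estimates than in cKO animals and the class I members had estimates near 0, but no member passed the test. The count of 0 of 10 by edgeR stands beside 0.209% of all genes called in that comparison, and 4 of 10 members, all of class II, had an unadjusted p under 0.05, beside 8.56% of all genes. DESeq2 called 3 of 10 there (Cd74, H2-Aa and H2-Eb1). This comparison shares the cKO libraries with the one above, so low class II counts in those 6 animals enter both.

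H2-Aa ranged from 2.65 to 3.54 CPM (median 2.71) in cKO+NDI1 animals, and all 6 were above all 6 cKO animals. H2-Ab1 ranged from 3.57 to 4.17 CPM (median 3.85), again above every cKO animal. These 2 of 10 members had groups that did not overlap in the higher direction, beside 0.516% of all genes. The log2 differences were 0.82 ± 0.21 for H2-Aa (95% interval 0.38 to 1.26; adjusted p = 0.143) and 0.73 ± 0.24 for H2-Ab1 (0.24 to 1.22; adjusted p = 0.285).

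Cd74 stood at 4.39 to 8.23 CPM (median 6.27) in cKO+NDI1 animals, 5 of 6 above every cKO animal, with a log2 difference of 0.76 ± 0.20 (adjusted p = 0.15). H2-Eb1 stood at 1.98 to 4.40 CPM (median 3.64), also with 5 of 6 above, and differed by 0.93 ± 0.22 (adjusted p = 0.1). The exception for H2-Eb1 was cKO+NDI1 female 3, the shallowest library of all, with 15 reads of this gene. The 6 class I members differed from cKO by between -0.07 and 0.04 on the log2 scale, and their 95% intervals ran at most from -0.29 (Tap1) to 0.33 (Tap1).

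In the presence of NDI1 the class II levels of knockout and control animals lay close together. Between cKO+NDI1 and NDI1 control animals the 4 class II differences were 0.01 to 0.15 on the log2 scale, all with 95% intervals within -0.44 to 0.54, and 0 of 10 members were called beside 0% of all genes. At an unadjusted p under 0.05, 2 of 10 members and 686 genes (4.48%) passed in edgeR, and DESeq2 and limma-voom also called 0 members. These 2 were B2m, with 5 of 6 cKO+NDI1 animals (104 to 149 CPM, median 122) above every NDI1 control animal (94.1 to 108 CPM, median 95.8), and H2-K1. The log2 differences were 0.32 ± 0.09 for B2m (adjusted p = 0.437, edgeR) and 0.28 ± 0.12 for H2-K1 (adjusted p = 0.998, edgeR). Those of the other class I members were 0.26 for Tap1, 0.12 for Tapbp, 0.09 for H2-D1 and -0.01 for Tap2, and those of class II were 0.15 for Cd74, 0.04 for H2-Aa and H2-Eb1 and 0.01 for H2-Ab1. The 10 microglial markers were all positive in this comparison too (median 0.21; 0 called, 3 with an unadjusted p under 0.05), and their part in the B2m and H2-K1 values was not tested.

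Against the Cre control, cKO+NDI1 animals had H2-K1 at 35.0 to 64.3 CPM (median 51.6), a log2 difference of 0.44 ± 0.12 (adjusted p = 0.0633), and B2m differed by 0.29 ± 0.09 (adjusted p = 0.0918). None of the 10 members passed, beside 1.25% of all genes in edgeR. At an unadjusted p under 0.05, 4 of 10 members (H2-K1, H2-D1, B2m and Tapbp) and 13.5% of all genes passed, and DESeq2 called 2 members where limma-voom called 0. The class II differences were 0.04 for Cd74, 0.05 for H2-Aa, 0.17 for H2-Ab1 and 0.27 for H2-Eb1, with upper bounds from 0.42 to 0.68. NDI1 control and Cre control animals differed by -0.11 for Cd74, 0.02 for H2-Aa, 0.16 for H2-Ab1 and 0.23 for H2-Eb1. The class I differences were 0.16 for H2-K1, 0.10 for H2-D1, -0.03 for B2m, -0.02 for Tap1, 0.03 for Tap2 and 0.04 for Tapbp, and 0 members were called by edgeR, DESeq2 or limma-voom, beside 0.00654% of all genes in edgeR. No member and 9.2% of all genes had an unadjusted p under 0.05 there.

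**Figure D3:**
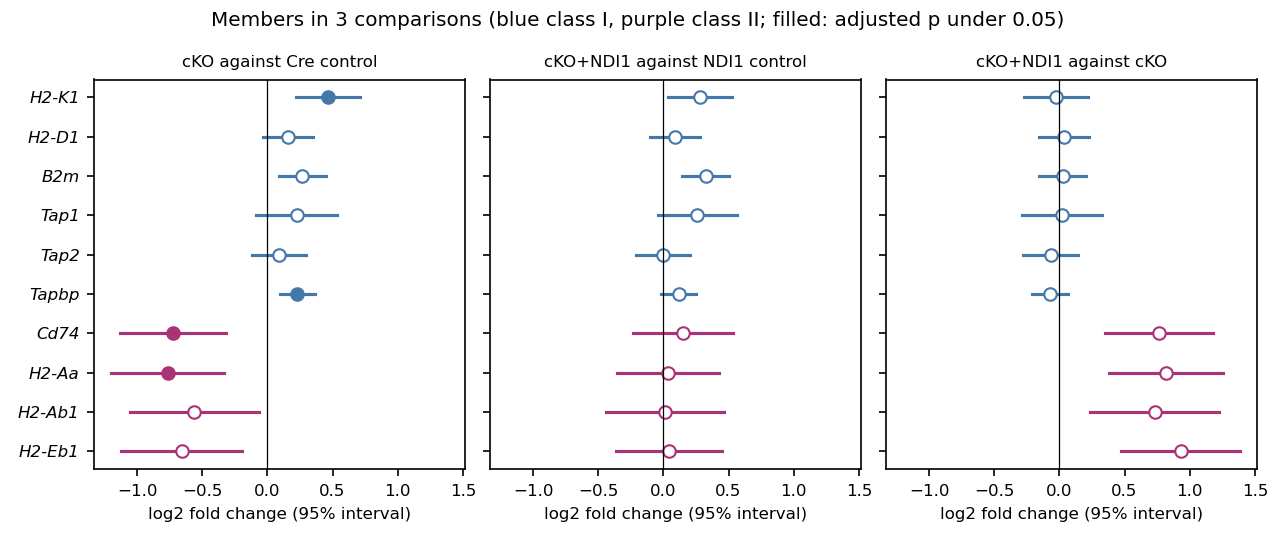
Log2 fold change of the 10 members (x axis) with its 95% interval in 3 comparisons, class I in blue and class II in purple, filled where the adjusted p was under 0.05. In cKO against Cre control the 2 classes lie on opposite sides of 0; in cKO+NDI1 against cKO class I lies at 0 and class II above it, with no member filled.

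Whether the knockout difference itself depended on NDI1 was tested as an interaction. The estimate, which is the difference with NDI1 minus that without, was 0.88 ± 0.27 for Cd74 (adjusted p = 0.675, edgeR) and 0.80 ± 0.28 for H2-Aa (adjusted p = 0.816). It was 0.70 ± 0.30 for H2-Eb1 (adjusted p = 0.915) and 0.57 ± 0.32 for H2-Ab1, and lay between -0.19 and 0.06 for the class I members. None of the 10 passed, nor did any of the genes tested (0%), in edgeR, and DESeq2 and limma-voom called 0 members, while 792 genes (5.18%) and 3 members had an unadjusted p under 0.05. A different knockout effect with and without NDI1 was thus not shown for any member. The microglial markers had positive estimates here as well (10 of 10, median 0.15, 0 called and 0 with an unadjusted p under 0.05), and their part was not tested.

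Each library's class level was described as the mean log2 CPM of its members minus the Cre control mean. The class I level was 0.23 ± 0.13 (SD, n = 6) in cKO and 0.23 ± 0.12 in cKO+NDI1 animals, and 0.05 ± 0.13 in NDI1 control animals. The class II level was -0.63 ± 0.20 in cKO animals, from -0.90 to -0.29, and 0.14 ± 0.17 in cKO+NDI1 animals. It varied widely in both control groups (SD 0.40 in Cre control and 0.38 in NDI1 control), and 2 of the 18 other libraries lay below the highest cKO animal. The difference of class II minus class I was -0.87 ± 0.22 in cKO animals, and 1 of the 18 other libraries, Cre control female 3 at -0.64, lay below the highest cKO animal at -0.50.

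**Figure D4:**
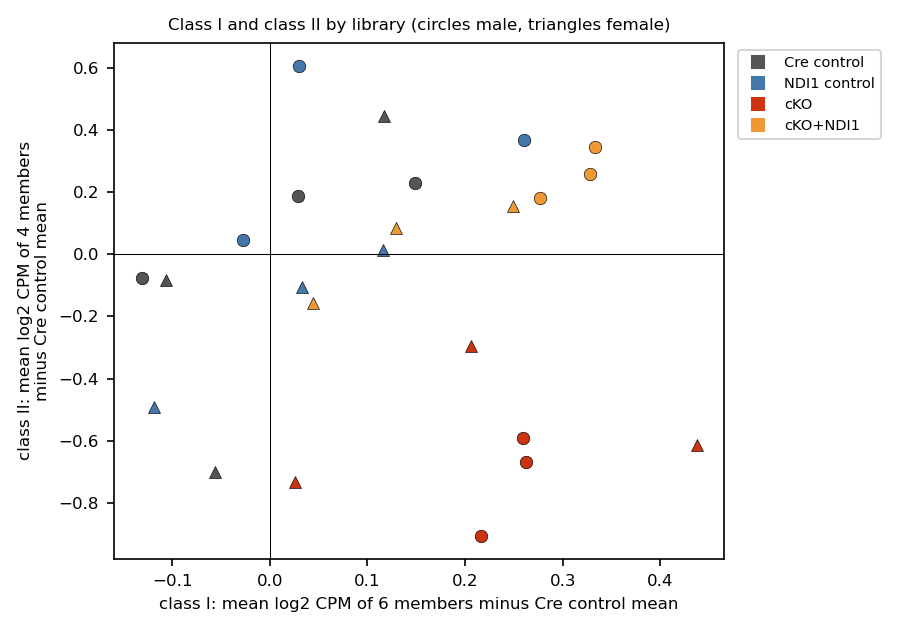
Each library's class I level (x axis) against its class II level (y axis), both as mean log2 CPM minus the Cre control mean, with circles for males and triangles for females. The 6 cKO animals lie low on the class II axis, 5 of them also toward the right and cKO female 3 at a class I level of 0.03, among the control animals, and the cKO+NDI1 animals all lie above the cKO animals in class II level.

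Taking out group and sex means, members were correlated across the 24 libraries. The libraries differed in depth and in cell type markers, with summed microglial markers from 205 to 315 CPM. The part of these differences in the correlations was not tested. Pearson's r was 0.76 between H2-K1 and B2m, 0.73 between H2-K1 and H2-D1, and 0.78 between H2-Ab1 and H2-Eb1. The median was 0.38 over 15 pairs within class I, 0.47 over 6 pairs within class II and 0.34 over 24 pairs across the classes, the highest of them H2-D1 with H2-Eb1 (0.74). Of the 24 pairs across the classes, 19 had a positive r.

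Of 12518 genes compared, those whose levels were most like H2-K1 after group and sex means were taken out were C1qb (r = 0.83, rho 0.83), Cebpa (0.81, rho 0.80), Ifi27 (0.80, rho 0.74), H2-T23 (0.80, rho 0.80), C1qa (0.78, rho 0.76) and Mfng (0.78, rho 0.73). C1qa and C1qb encode complement C1q chains made by microglia in brain, and H2-T23 is a nonclassical class I heavy chain. Without the 2 libraries farthest from the median of H2-K1, r was 0.65 to 0.75 for these 6 genes. For Cd74 the closest were Clptm1 (r = 0.75), Gstm2 (0.73), Anxa5 (0.73), Capns1 (0.72), Zdhhc1 (0.71) and Cmtm6 (0.71), with r from 0.51 to 0.80 without 2 libraries. These genes were picked as the highest of 12518, so their correlations describe these libraries.

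Of 26 other genes listed for the class I pathway, 23 were tested in cKO against Cre control, 14 with positive and 9 with negative estimates (median 0.09). Of these 23, 1 rose and 3 fell, beside 3.06% of all genes higher and 1.81% lower. H2-K2, annotated as a class I pseudogene beside H2-K1, rose from a median of 2.72 to 4.87 CPM (log2 difference 0.68 ± 0.18, adjusted p = 0.0259). All 10 heavy chain genes of the H2-K, Q, T and M loci tested in this list, a grouping made after the values were seen, had positive estimates, from 0.09 (H2-T22) to that of H2-K2, and 9 of them did not pass. The 3 that fell were the endoplasmic reticulum chaperones Canx (-0.41, adjusted p = 0.00262), Calr (-0.40, adjusted p = 0.0158) and Pdia3 (-0.33, adjusted p = 0.0235), which fold class I chains along with many other glycoproteins. The immunoproteasome subunits Psmb8 (0.31 ± 0.22, adjusted p = 0.498) and Psmb9 (-0.22 ± 0.23, adjusted p = 0.688) and the class I coactivator Nlrc5 (0.55 ± 0.42, adjusted p = 0.538) did not pass.

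Of 16 other class II pathway genes, 12 were tested, 8 with positive and 4 with negative estimates (median 0.05). The lysosomal protease Ctsb fell (-0.21 ± 0.06, adjusted p = 0.0387, edgeR), and none rose. That is 1 of 12 lower and 0 higher, beside 1.81% and 3.06% of all genes. H2-DMa and H2-DMb1, the subunits of the peptide exchange factor, had positive estimates (0.23 ± 0.12 and 0.22 ± 0.30) that did not pass. Ctss, the protease that trims the invariant chain, differed by 0.07 ± 0.11. Ciita had 0 to 12 counts per library and was not tested.

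The interferon signalling genes analysed here were all tested (14 of 14), with 9 positive and 5 negative estimates and a median of 0.13. In cKO 3 of 14 rose and 0 fell, beside 3.06% of all genes higher and 1.81% lower. The 3 that rose in cKO were Irf7, a factor that amplifies type I interferon responses (1.11 ± 0.26, adjusted p = 0.0148), the kinase Tyk2 (0.38 ± 0.07, adjusted p = 0.00406) and Stat2 (0.37 ± 0.09, adjusted p = 0.0147). Irf7 ranged from 2.10 to 5.26 CPM in Cre control and from 3.65 to 11.8 CPM in cKO animals, and its groups overlapped. Irf1, a factor induced by interferon gamma (-0.02 ± 0.13, adjusted p = 0.974), did not pass. In cKO+NDI1 against cKO, no gene of these 3 lists was called, beside 0.209% of all genes. The largest estimate there among the genes above was that of Psmb9 (0.76 ± 0.22, adjusted p = 0.207). In cKO+NDI1 against Cre control, 1 of 14 interferon signalling genes was called, in the higher direction. No gene of the other lists was called there, beside 1.25% of all genes in either direction.

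Around the members on chromosome 17, from 33915899 to 35267499, 68 other genes were tested. In cKO against Cre control 5 of these rose and 0 fell, which is 7.35% beside 4.87% of all genes. They were Rgl2, the neighbour of Tapbp (0.50 ± 0.10, adjusted p = 0.00449), H2-K2, the neighbour of H2-K1, Pbx2 (0.29, adjusted p = 0.00907), Ehmt2 (0.28, adjusted p = 0.0154) and the complement gene C4b (0.81 ± 0.18, adjusted p = 0.0101). The median log2 difference over the 68 genes was 0.05.

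Markers of the cells that could carry MHC message were read beside these results. For microglia, 10 of 10 markers were tested and 0 were called in cKO against Cre control (median log2 difference 0.04); their summed level was 225 to 293 CPM in cKO and 218 to 281 CPM in Cre control animals. For macrophages of the brain's borders, 7 of 7 were tested and 0 were called. Of these, 5 of 7 had negative estimates in cKO against Cre control (median -0.27) and 7 of 7 positive ones in cKO+NDI1 against cKO (median 0.35), the same signs as the class II members. Their sums overlapped, at 11.2 to 17.7 CPM in cKO (median 11.7), 12.3 to 16.2 CPM in Cre control (median 14.2), 12.97 to 16.7 CPM in NDI1 control and 10.04 to 18.3 CPM in cKO+NDI1 animals (median 15.5). The part of border macrophages in the class II result was not tested.

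B cell markers (Cd79a, Cd79b and Ms4a1) summed to 0 to 1.65 CPM in cKO (median 0.760) and 0.717 to 1.65 CPM in Cre control animals (median 1.06), and were too scarce to test; their part in the class II result was not tested. T cell markers summed to at most 0.732 CPM in every library. Of 7 dendritic cell markers 5 were too scarce to test, with group means of at most 0.575 CPM (Batf3 in cKO+NDI1). The other 2, Flt3 and Zbtb46, stood at group means of 34.9 to 39.7 CPM and 71.4 to 78.0 CPM in all groups. Beside markers so scarce, these levels were not read as a measure of dendritic cells, whose part was not tested. Of 6 endothelial markers 1 was called in cKO against Cre control, beside 4.87% of all genes. This was Pecam1, which rose by 0.76 ± 0.09 (adjusted p = 0.000151, edgeR). The summed endothelial level was 209.5 to 276 CPM in cKO and 187 to 226 CPM in Cre control animals. Endothelium carries class I, and its part in the class I result was not tested.

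**Figure D5:**
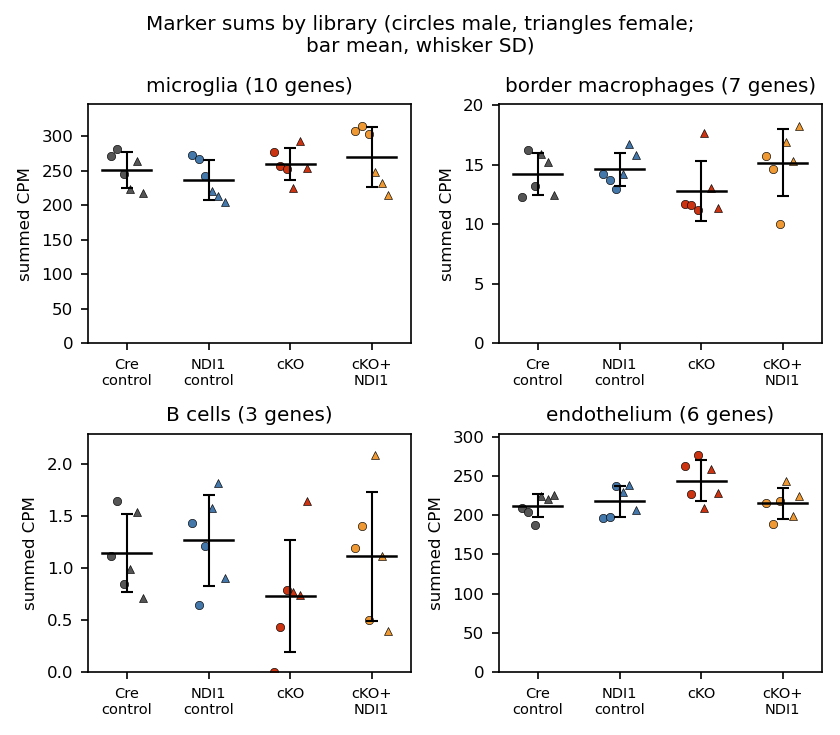
Summed level (CPM; y axis from 0) of marker genes for microglia, border macrophages, B cells and endothelium in each library by genotype group, with circles for males, triangles for females, a bar at the mean and a whisker of 1 SD. Microglial sums overlap between cKO and Cre control animals, and border macrophage and B cell sums have their lowest medians in cKO animals.

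Males had higher estimates than females for 9 of 10 members, Tap1 being the exception, but none passed in edgeR, DESeq2 or limma-voom, beside 0.085% of all genes in edgeR. At an unadjusted p under 0.05, 3 of 10 members (H2-K1, H2-D1 and H2-Eb1) and 16.9% of all genes passed. The largest were H2-Eb1 (0.34 ± 0.15, adjusted p = 0.291) and H2-K1 (0.23 ± 0.08, adjusted p = 0.291). Microglial markers were higher in males in 10 of 10 estimates (median 0.26, beside 0.15 for the members), with 0 called and 7 at an unadjusted p under 0.05, and their part in the members' values was not tested. The knockout difference in males minus that in females was not called for any member, nor for any gene tested (0%), with estimates from -0.71 (H2-Eb1) to 0.26 (Tap1); 3147 genes (20.6%) and 0 of 10 members had an unadjusted p under 0.05 in edgeR.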

How the data were processed

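RNA was extracted from whole cerebellum and sequenced as polyA-selected libraries, per the labels' protocols. The submitters' processing notes name STAR, HTSeq, Trimmomatic and bcl2fastq, without versions, and the build mm10. Values are the authors' read counts per gene as deposited, whole numbers without normalisation. Its length column is not the union of exons for many genes, so RPKM values used union exon lengths of the GENCODE vM21 annotation. Groups, sexes and replicate numbers came from the labels, which name no batch.

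Counts were scaled by TMM, filtered with filterByExpr by group, and tested in 1 model of 24 libraries (genotype group and sex; group by sex for the sex difference) with the robust quasi-likelihood F test of edgeR 4.0.16 (limma 3.58.1, R 4.3.3). Benjamini-Hochberg adjustment ran over 15300 genes, with a threshold of 0.05; ± after a fold change is the SE. Log2 CPM used a prior count of 2. Settings tried were RLE factors, library size alone, no filter, thinning to the smallest total, limma-voom, DESeq2 1.42.0, the 2 groups alone, each sex alone, a replicate block and leaving out each library. Procedures were tested on simulated data. No library was a copy of another in the 60 pairs examined, which are not all pairs of the 24 libraries. All members were tested in each comparison, and members far from the threshold are in part given by their range; other pathway genes are named where called, with a few regulators and processing genes named whatever their values. Members and lists were chosen with earlier results of these data known. Protein sequences were not used here, and 2 listed genes are not reported here. P-values set a difference against the spread between libraries, which are 1 per animal.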

Additional observations from a re-analysis of the deposited data

Results flagged for a closer look

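Within groups of 6, 40 sets of member levels were examined for a library far from the others (Dixon's ratio, the gap to the nearest library over the group's range, past its 95% critical value), and 2 stood apart; chance gives about 1 in 20. H2-K1 was at 65.4 CPM in cKO female 2, with the next cKO animal at 50.1 CPM (ratio 0.630); without that animal the log2 difference from Cre control had the same sign and its call was lost. Tap2 was at 12.3 CPM in Cre control female 2, with the next animal at 10.3 CPM (ratio 0.681).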

How the results depend on the processing

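Of 4 members called in cKO against Cre control, the count was 0 in the 2 groups alone, 0 in males alone and 0 in females alone, where fewer libraries entered the fit; it was 0 to 4 when each library was left out in turn. It stayed within 1.5 times of 4 with RLE factors (4), library size alone (4), no filter (3), thinning (3), limma-voom (3) and DESeq2 (6). In cKO+NDI1 against cKO, DESeq2 called 3 members in place of 0. In cKO+NDI1 against Cre control, in place of 0, library size alone, thinning and the 2 groups alone each called 1 and DESeq2 called 2; leave-one-out fits called 0 to 1 (1 without cKO+NDI1 female 3, cKO male 3 or cKO female 2). The cause was not tested. No called member reversed its sign.

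With the replicate number as a block in place of sex, 5 members were called in cKO against Cre control and 2 in cKO+NDI1 against Cre control. Same-numbered libraries deviated together (r over 0.1) in 19 of 36 pairs (-0.40 to 0.51), with no differently numbered pairs set beside them. Female 3 had the lowest H2-K1 of each group, at 32.1 (Cre control), 34.3 (NDI1 control), 41.1 (cKO) and 35.0 CPM (cKO+NDI1). This held in each group for H2-D1 and H2-Aa too, and for no other member. The labels give the numbers no meaning, so they were not taken as a pairing. Whether same-numbered libraries share more than a name was not tested. No block was fitted for the results about sex. Class II rests on 12 to 59 reads per cKO library, and this depth limits its precision.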

Other observations

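Within the cKO+NDI1 group the 3 males and 3 females did not overlap for H2-K1: males stood at 57.8 to 64.3 CPM and females at 35.0 to 45.3 CPM. The summed microglial markers split the same animals in the same way, at 304 to 315 CPM in males and 215 to 248 CPM in females. B2m (127 to 149 and 104 to 118 CPM) and Cd74 (6.94 to 8.23 and 4.39 to 5.61 CPM) split likewise there, and the other members overlapped. In NDI1 control animals H2-K1 overlapped between the sexes (37.2 to 53.7 and 34.3 to 41.6 CPM). The summed microglial markers did not overlap there, at 243 to 273 CPM in males and 205 to 221 CPM in females. Nor did B2m (96.4 to 108 and 94.1 to 95.2 CPM), H2-Ab1 or H2-Eb1, while the other members overlapped. These splits were noticed after the values were seen. The difference between cKO+NDI1 and NDI1 control in males minus that in females was 0.34 ± 0.21 for H2-K1 (SE; adjusted p = 0.469, edgeR), and 0 genes were called in that contrast (1723 genes at an unadjusted p under 0.05), so a sex difference in the knockout effect was not shown. H2-Ab1 had the smallest unadjusted p of the 10 members in that contrast (-0.83 ± 0.36, adjusted p = 0.441), with NDI1 control males at 4.05 to 6.46 CPM above the females at 2.47 to 2.96 CPM, and cKO+NDI1 animals of both sexes between 3.57 and 4.17 CPM.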
